A study of Mus musculus with 23 samples.

Results

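The genes described here are 39 genes of the presynaptic terminal, given as a list of symbols and taken as the rows of the count table that carry those symbols. All 39 were found among the table's 45706 genes, and 39 of them passed the filter on low counts. They comprised 14 vesicle proteins, 11 SNARE and fusion genes, 9 active zone genes, 3 vesicle recycling genes and 2 presynaptic adhesion genes. The samples were hippocampi of female mice, with 1 RNA-seq library each: 12 samples with intact Ins2, one of the mouse insulin genes (Ins2+/+, called WT), and 11 without it (Ins2-/-, called KO). The labels give no age, no strain and no status of the other mouse insulin gene, and neither genotype received a treatment that the labels name. They do not say whether a library came from 1 animal or from pooled tissue, and the KO label does not name a tissue-limited deletion, so the groups do not separate brain insulin from insulin made elsewhere. The labels do not state separate litters or days either, and p-values measure only the spread between these samples.

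Neurotransmitter is stored in synaptic vesicles that are filled by transporters, held in reserve by synapsins, and docked and primed at the active zone by large scaffold proteins and by Munc13 proteins. Fusion is driven by SNARE proteins on the vesicle and the plasma membrane, timed by calcium sensors of the synaptotagmin family and by complexins, after which the SNARE complex is taken apart and the vesicle membrane is retrieved. In the hippocampus most of this machinery belongs to glutamatergic neurons, which load vesicles with the transporter encoded by Slc17a7. Many of these proteins come as several isoforms that other brain regions use in other proportions.

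RefSeq promoter windows of 300 bases on GRCm38.p6 were found for 33 of the 39 genes, in 45 windows. Syn3, Syt7, Snap25, Vamp2, Rims2 and Nrxn2 had none. The 4 windows are shown because their genes held the lowest and highest values relative to the other libraries in the library that stood apart (Slc17a7, Rims3, Unc13c) or held the NRF1 motif (Bsn). Each is written 5′ to 3′ on the gene's own strand and lies mostly upstream of the RefSeq start. Capitals mark GC boxes (GGGGCGGGG on either strand) in Slc17a7, Rims3 and Unc13c, and the palindromic NRF1 motif in Bsn.
Slc17a7, chr7:45163671-45163970, + strand: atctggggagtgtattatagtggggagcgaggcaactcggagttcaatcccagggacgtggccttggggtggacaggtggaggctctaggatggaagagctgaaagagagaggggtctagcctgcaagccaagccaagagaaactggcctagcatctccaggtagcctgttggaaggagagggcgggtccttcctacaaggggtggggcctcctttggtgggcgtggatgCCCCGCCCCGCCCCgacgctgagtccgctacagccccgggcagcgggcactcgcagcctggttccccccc
Rims3, chr4:120854549-120854848, + strand: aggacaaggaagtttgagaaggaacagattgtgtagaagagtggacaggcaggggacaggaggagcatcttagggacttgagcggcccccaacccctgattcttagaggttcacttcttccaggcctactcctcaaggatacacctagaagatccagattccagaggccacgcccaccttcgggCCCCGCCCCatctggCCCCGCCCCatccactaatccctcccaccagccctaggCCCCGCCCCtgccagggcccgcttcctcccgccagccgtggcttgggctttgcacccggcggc
Unc13c, chr9:73968988-73969287, − strand: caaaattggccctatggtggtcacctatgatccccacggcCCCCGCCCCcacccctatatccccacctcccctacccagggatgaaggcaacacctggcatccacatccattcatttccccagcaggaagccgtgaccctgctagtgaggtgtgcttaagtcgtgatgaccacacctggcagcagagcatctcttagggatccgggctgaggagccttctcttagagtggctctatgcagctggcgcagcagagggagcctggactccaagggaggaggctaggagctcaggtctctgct
Bsn, chr9:108190334-108190633, − strand: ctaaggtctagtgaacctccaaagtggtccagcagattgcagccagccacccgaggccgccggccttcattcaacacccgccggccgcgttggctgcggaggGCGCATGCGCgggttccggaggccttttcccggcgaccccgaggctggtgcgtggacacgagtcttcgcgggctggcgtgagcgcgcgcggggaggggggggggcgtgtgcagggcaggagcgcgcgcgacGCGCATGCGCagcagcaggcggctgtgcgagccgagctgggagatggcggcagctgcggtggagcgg
The GENCODE M21 start of the gene lies inside the window for Slc17a7, Rims3 and Bsn, and just downstream of it for Unc13c. GC boxes numbered 2 in the Slc17a7 window, where they overlap, 3 in the Rims3 window and 1 in the Unc13c window, so the motif was present in genes at opposite ends of the range described below. A GC box occurred in 31.1% of the 45 windows and in 11.4% of all 32851 RefSeq windows, and an NRF1 motif in 13.3% and 4.6%. CRE (TGACGTCA) was found in 4.44% against 1.79%, AP-1 (TGANTCA) in 8.89% against 7.81%, the E-box (CANNTG) in 73.3% against 72.3%, and TATAAAAG in 0 of 45 windows against 1.7%. RE1, the long element that neuronal genes use for silencing outside neurons, was present in 1 window, that of Rph3a, against 0.00609% of all windows. The median GC content of the 45 windows was 62%, against 52.7% over all windows, and motif shares were not compared at matched GC content. A motif match describes letters in the window, and no binding was measured.

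Library totals ranged from 13792274 to 22953261 counts. Ins2 had 0 counts in each of the 11 KO libraries and 26 counts in WT. Of these 26, 18 were in WT 17, which was also the library richest in choroid plexus markers, and the other 8 lay in 6 WT libraries with 1 or 2 counts each. No KO library thus went against its label, while 5 WT libraries had no Ins2 count either. KO library 8 stood apart from the rest. Its summed level of 13 hypothalamic markers was 1662 CPM (counts scaled to a common library total, with TMM-adjusted library sizes) against 2.3 to 14.3 CPM in the other 22 libraries, with 13 of 13 genes above their range. Its summed level of 10 CA pyramidal markers was 193 CPM against 572 to 843 CPM, with 9 of 10 genes below. That of 8 dentate gyrus markers was 280.0 CPM against 396 to 735 CPM, with 7 of 8 below and 1 above. The 1 above was Calb1, at 197 CPM against at most 156.5 CPM, which made up most of the sum in KO 8. The summed pan-neuronal list (4328 CPM, others 3309 to 4602 CPM) lay inside the range of the others, but 5 of its 10 genes were above that range and 3 below, among them Gap43 at 445 CPM against at most 162 CPM and Rbfox3 at 97.8 CPM against at least 210.2 CPM. The oligodendrocyte list (5057 CPM, others 3571 to 8818 CPM) was inside in sum and for each of its 8 genes. The label of KO 8 says hippocampus, and most of the hippocampal markers were low there. Choroid plexus markers exceeded a sum of 1000 CPM in WT 14, WT 17, KO 2, KO 6 and KO 12, up to 20795 CPM in WT 17, against at most 109 CPM elsewhere. Thalamus and habenula markers were highest, after the 429.7 CPM of KO 8, in WT 15 and KO 4 (169 and 168 CPM), followed closely by WT 5 (152 CPM) among others that reached down to 98.8 CPM. In KO 8, 7 of these 10 markers were above the range of the others and 1 below. One of the 10 is Slc17a6, itself a presynaptic gene, which made up 251 CPM of the sum in KO 8, 42.6 CPM in KO 4 and 30.6 CPM in WT 15. Without Slc17a6 the sums were 178.7, 125 and 138 CPM, and KO 4 was at rank 5 of the 23 libraries, below WT 5 and WT 24 (134.9 and 130.3 CPM). The summed level of 10 interneuron markers in KO 8, 1193 CPM, lay inside the range of the others (713 to 1351 CPM), with 2 genes above their range (Gad2 and Slc32a1) and 4 below (Pvalb, Npy, Lhx6 and Cnr1). No marker of any list was at 0 in all of the other 22 libraries. Every comparison is therefore given with and without KO 8. In bulk tissue, fewer cells of a type and less RNA per cell cannot be told apart.

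The genes took a mean of 1.86% ± 0.165 (SD, n = 12) of all counts in WT and 1.81% ± 0.212 (SD, n = 11) in KO, and the lowest share, 1.28%, was that of KO 8. Levels are compared between genes as CPM per kilobase of exon, the union of a gene's annotated exons. On this per-length scale the WT means ran from 342 ± 40.7 (SD, n = 12) for Cplx2 to 0.695 ± 0.109 for Syn3. Cplx2 was above the gene next in order, Snap25, in 12 of 12 WT libraries, Snap25 above Syp in 12, and Syp above Cplx1 in 12. Neighbours in the order often exchanged places: Cplx1 was above Dnm1 in 8 of 12 WT libraries, Rab3a above Syt1 in 8, Syt1 above Syt11 in 7, Nsf above Syn1 in 6, and Sv2b above Syt7 in 5. The 9 active zone genes lay in the lower part of the order, from Bsn at rank 21 to Unc13c at rank 37. Within WT the coefficient of variation of CPM had a median of 12.1% over the 39 genes, from 7.44% for Syt11 to 33.8% for Cplx3, and exceeded 20% in 5 genes, Cplx3, Syt2, Unc13c, Rims3 and Sv2c.

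**Figure D1:**
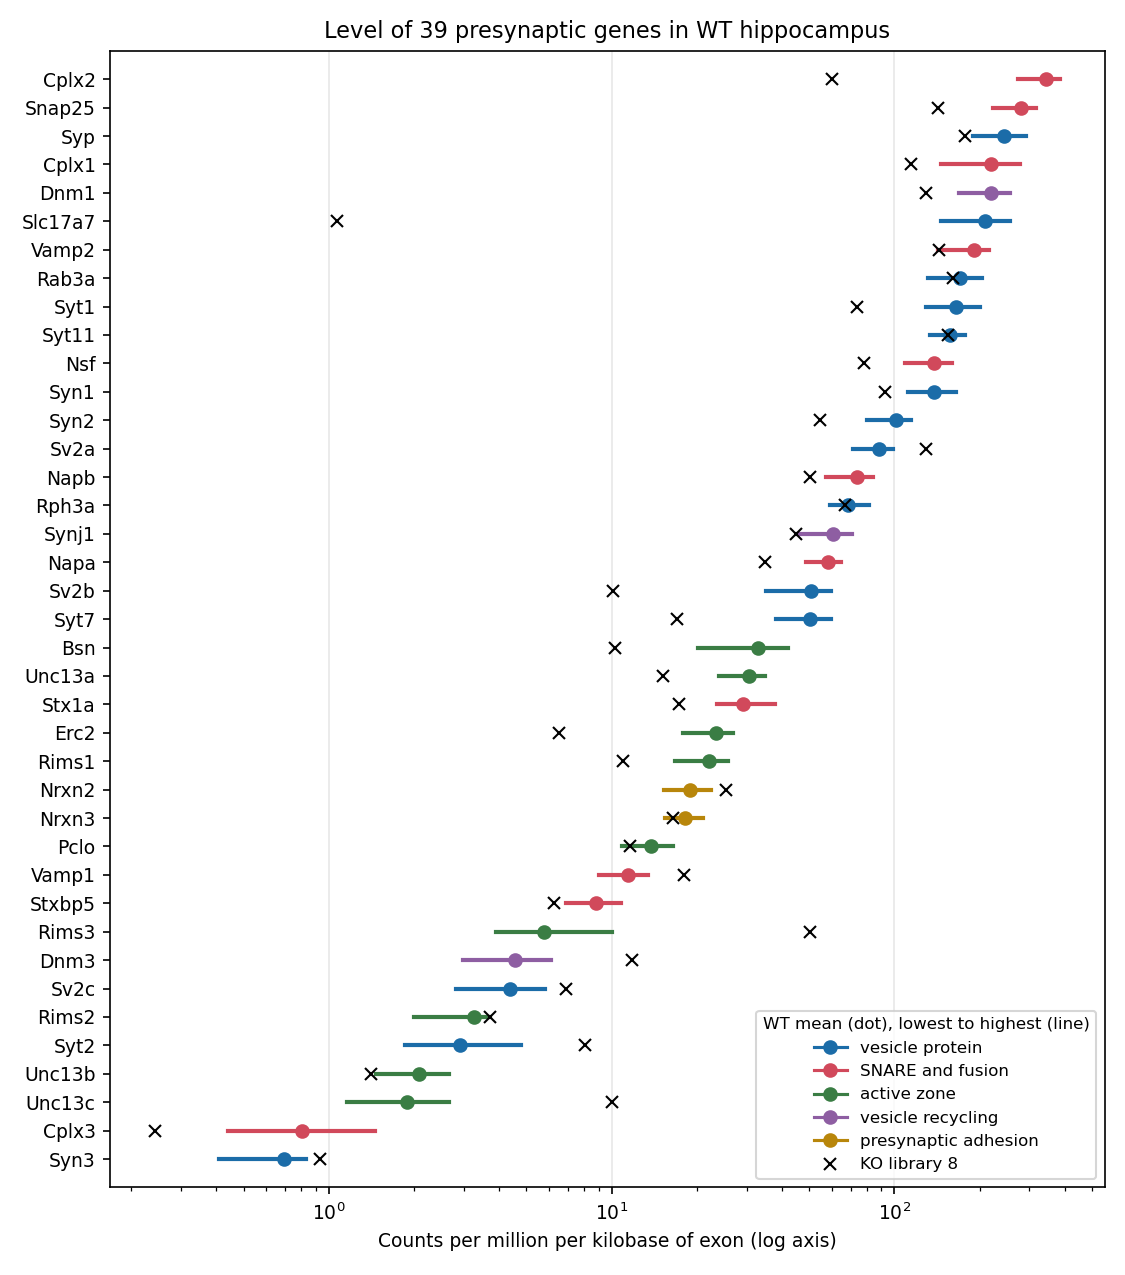
Level of each of the 39 genes in WT hippocampus as CPM per kilobase of exon, on a log axis. Dots are means of 12 WT libraries, lines run from the lowest to the highest WT library, and crosses mark KO library 8, which is at 1.07 for Slc17a7 against a WT mean of 208.

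The 14 vesicle protein genes ran from rank 3, Syp, to rank 39, Syn3, of the per-length order in WT. Synaptophysin, Syp, an abundant vesicle membrane protein, measured 1276 ± 120 CPM in WT (SD, n = 12), 1318 ± 89.6 CPM in the 10 KO libraries other than KO 8 (SD) and 928 CPM in KO 8. Slc17a7, the glutamate loader VGLUT1, measured 787, 1138 and 1382 CPM as the lowest, median and highest WT library and 912, 1105 and 1269.6 CPM in the 10 KO libraries. In KO 8 it measured 5.76 CPM from 96 counts, 0.511% of the median of the other 22 libraries, or 196-fold lower. Rab3a, a small GTPase of the vesicle surface, measured 380.4 ± 41.6 CPM in WT and 399 ± 33.0 CPM in the 10 KO libraries, and its partner Rph3a 318 ± 35.7 and 307 ± 38.0 CPM. KO 8 lay inside the range of the others for Rab3a and Rph3a (359 and 309 CPM).

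Synapsins tether vesicles to one another in the reserve pool. Syn1 measured 455 ± 52.6 CPM in WT and 461 ± 48.0 CPM in the 10 KO libraries, and Syn2 713 ± 77.7 and 699 ± 62.9 CPM. Syn3 was far lower, at 8.54 ± 1.34 CPM in WT and 7.83 ± 1.42 CPM in the 10 KO libraries. Per length, Syn1 was above Syn2 in 23 of 23 libraries, by 1.36-fold ± 0.077 in WT, and above Syn3 by 206-fold ± 64.0. The order of Syn1 and Syn2 depended on the length used: with the longest annotated transcript in place of the exon union, Syn2 was above Syn1 in 23 of 23 libraries, and Syn1 was above Syn3 by 81.2-fold in WT. In KO 8, Syn1 (305 CPM) and Syn2 (383 CPM) were below, and Syn3 (11.4 CPM) above, the range of the other 22 libraries.

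Of the synaptotagmins, Syt1 and Syt2 are fast calcium sensors of release, Syt7 is a slower sensor, and Syt11 lacks calcium binding. Syt1 measured 1377 ± 167 CPM in WT and 1372 ± 184 CPM in the 10 KO libraries, and Syt11 819 ± 60.9 and 837 ± 70.6 CPM. Per length of exon union they were close, Syt11 being above Syt1 in 12 of 23 libraries. With the longest transcript it was above in 1 of 23, and Syt1 exceeded it by 1.75-fold in WT. Syt1 exceeded Syt7 by 3.32-fold ± 0.408 and Syt2 by 60.6-fold ± 16.5 in WT, and by 5.08-fold and 94.4-fold with the longest transcript. The gap between the fast sensors was smallest in KO 8, where Syt1 was 9.19-fold above Syt2, against 25.2-fold to 87.7-fold in the other 22 libraries. Syt7 measured 375 ± 50.0 CPM in WT and 335 ± 52.7 CPM in the 10 KO libraries. In KO 8 Syt1 measured 617 CPM and Syt7 127 CPM, below the others, while Syt11 (807 CPM) was inside their range.

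The Sv2 genes encode vesicle glycoproteins with a transporter-like fold. Sv2a measured 410.1 ± 34.2 CPM in WT and 426 ± 31.9 CPM in the 10 KO libraries, and Sv2b 426 ± 68.1 and 449 ± 66.4 CPM. Per length of exon union Sv2a was 1.78-fold ± 0.295 above Sv2b and 21.2-fold ± 5.71 above Sv2c in WT. With the longest transcript Sv2a was 1.25-fold above Sv2b in WT, and Sv2b was the higher in 1 of 23 libraries. KO 8 held the highest Sv2a (598 CPM) and Sv2c (66.9 CPM) of all libraries and the lowest Sv2b (84.9 CPM), so that Sv2a was 12.7-fold above Sv2b there, against at most 2.54-fold elsewhere.

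The SNARE and fusion genes held both of the highest levels per length of exon union, those of Cplx2 and Snap25. With the longest annotated transcript as length the WT order was Syp, Snap25, Slc17a7 and Cplx2 from rank 1 to rank 4, and Cplx1 moved from rank 4 to rank 10. Snap25, a plasma membrane SNARE, measured 1902 ± 185 CPM in WT, 1934 ± 183 CPM in the 10 KO libraries and 971 CPM in KO 8. Its partner Stx1a, a syntaxin, measured 77.7 ± 10.8, 80.0 ± 8.76 and 46.2 CPM. The vesicle SNARE Vamp2 measured 726 ± 73.4 CPM in WT and 753 ± 71.1 CPM in the 10 KO libraries, and its relative Vamp1 116 ± 13.1 and 121 ± 17.9 CPM. Per length Vamp2 exceeded Vamp1 16.8-fold ± 1.44 in WT and 7.98-fold in KO 8, where Vamp1 was the highest of all libraries (183 CPM). Stxbp5 (tomosyn), which binds syntaxin and restrains SNARE assembly, measured 145 ± 18.4 CPM in WT, 136 ± 18.3 CPM in the 10 KO libraries and 103 CPM in KO 8.

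Complexins bind the assembled SNARE complex. Cplx2 measured 1688 ± 201 CPM in WT, 1632 ± 162 CPM in the 10 KO libraries and 296 CPM in KO 8. Cplx1 measured 481 ± 76.5, 519 ± 58.3 and 251 CPM. Per length Cplx2 was 1.58-fold ± 0.239 above Cplx1 in WT and above it in each of the 22 libraries other than KO 8, where Cplx1 was 1.91-fold above Cplx2. Cplx3, a complexin best known from retinal ribbon synapses, was 469.6-fold ± 167 below Cplx2 in WT. Nsf, the ATPase that takes SNARE complexes apart, measured 1153 ± 128 CPM in WT, 1138 ± 121 CPM in the 10 KO libraries and 649 CPM in KO 8. Its adaptors Napb (521 ± 52.1, 528 ± 56.5 and 355 CPM) and Napa (219.9 ± 20.7, 221 ± 23.3 and 132 CPM) were also lowest in KO 8. Napb was above Napa per length in 21 of 23 libraries.

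Active zone genes were less abundant per length. The scaffold genes Bsn and Pclo measured 526.1 ± 102 and 310.3 ± 41.5 CPM in WT and 476 ± 108 and 287 ± 59.9 CPM in the 10 KO libraries, and Erc2 227 ± 29.2 and 208 ± 34.8 CPM. In KO 8 Bsn (164 CPM) and Erc2 (63.6 CPM) were below all other libraries and Pclo (261 CPM) was not. RIM proteins tie vesicles and calcium channels to the scaffold. Rims1 measured 163 ± 19.3 CPM in WT, 157 ± 19.1 CPM in the 10 KO libraries and 80.6 CPM in KO 8, and Rims2 33.9 ± 4.78, 35.0 ± 4.23 and 38.7 CPM. Per length Rims1 was 6.83-fold ± 0.78 above Rims2 and 4.01-fold ± 0.884 above Rims3, the short RIM isoform, in WT. With the longest transcript the ratio of Rims1 to Rims2 was 3.61. That order held in each of the other 22 libraries, while in KO 8 Rims3 was 4.6-fold above Rims1.

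Munc13 proteins prime vesicles for fusion. Unc13a was the main isoform, 14.8-fold ± 1.82 above Unc13b and 17.3-fold ± 4.78 above Unc13c per length in WT. Unc13b measured 47.4 ± 6.78 CPM in WT, 47.5 ± 5.6 CPM in the 10 KO libraries and 32.1 CPM in KO 8. Unc13c came closest to Unc13a in KO 8, at 1.52-fold below it, against at least 5.34-fold in the other 22 libraries.

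Among the recycling genes, Dnm1, the GTPase that pinches vesicles from the membrane, measured 1148 ± 135 CPM in WT, 1146 ± 112 CPM in the 10 KO libraries and 679 CPM in KO 8. Dnm3, its relative, measured 112 ± 20.2, 115 ± 19.5 and 288 CPM. Per length Dnm1 was 49.2-fold ± 9.1 above Dnm3 in WT and 10.98-fold in KO 8, and with the longest transcript 17.3-fold in WT. Synj1, the lipid phosphatase that helps to shed the clathrin coat, measured 489 ± 61.7, 479 ± 62.6 and 362 CPM. Neurexins of the presynaptic membrane bind partners across the cleft. Nrxn2 measured 262 ± 26.0, 267 ± 19.5 and 350.5 CPM, and Nrxn3 229 ± 21.6, 226 ± 24.3 and 208 CPM. Nrxn3 was above Nrxn2 per length of exon union in 7 of 23 libraries. With the longest transcript it was above in 0 of 23, and Nrxn2 exceeded it by 1.36-fold in WT. Over the 17 isoform pairs, 12 had the same order of per-length levels in all 23 libraries and 14 in all 12 WT libraries.

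Libraries of the same genotype differed across many of these genes at once. WT 17, the library with the most choroid plexus marker counts, held the lowest WT value for 24 of the 39 genes, and WT 15, the WT library with the most hypothalamic and thalamic marker counts, for 10. WT 20 held the highest WT value for 15 genes and WT 1 for 9. In WT, WT 17 also had the lowest pan-neuronal sum (3309 CPM) and WT 20 the lowest oligodendrocyte sum (4058 CPM). Among the 10 KO libraries other than KO 8, KO 12, the KO library with the most choroid plexus marker counts, was lowest for 25 genes, and KO 22 was highest for 16. In KO, KO 12 had the lowest pan-neuronal sum (3409 CPM) and KO 22 the lowest oligodendrocyte sum (3571 CPM). The other choroid-rich libraries were lowest less often: WT 14 and KO 2 for 0 genes each and KO 6 for 4. The share of all genes tested for which each library was lowest in its genotype was not counted. WT 15 and KO 4 held the highest values of their genotype, KO 8 left out, for Rims3, Unc13c, Syt2, Vamp1 and Dnm3, which were also higher in KO 8 than in any other library. The other genes that were highest in KO 8 did not share this pair. Sv2a was highest in WT 5 and KO 4, Sv2c in WT 15 and KO 22, Syn3 in WT 19 and KO 22, and Nrxn2 in WT 1 and KO 2. The part of the marker tissues in these values was not tested.

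Between genotypes, none of the 39 genes was called different. With all 23 libraries, 0 of 39 genes passed an adjusted p below 0.05 by edgeR's quasi-likelihood test with Benjamini-Hochberg adjustment over all 15828 genes tested, of which 0.0126% were called, and 0 passed by DESeq2 or limma voom, each of which called 0.0253% of all genes. Without KO 8 the count was again 0 of 39 by each of the 3 tools, with 0.0126% of 15870 genes called by edgeR, 0.0189% by DESeq2 and 0.0252% by limma voom. With KO 8, 4 genes had an unadjusted p below 0.05, 10.3% of the 39 against 5.74% of all genes tested. Rims3, Unc13c and Syt2 were the 3 with higher values in KO (3.41% of all genes tested) and Unc13a the 1 with lower values (2.34%). Without KO 8 this held for 2 genes, 5.13% against 4.11%: Cplx3 with higher values in KO (2.18% of all genes) and Sv2c with lower values (1.93%). The gene names at this level were therefore different in the comparisons with and without KO 8, and the comparisons share all 12 WT and 10 KO libraries. The 39 genes had a median log2 fold change of −0.04 with KO 8, with 25 of 39 lower in KO, and 0.012 without it, with 17 lower. Both moved with the processing: under limma voom they were −0.0099 with 20 lower and 0.00096 with 19 lower, and without KO 8 the median was 0.029 with 13 lower with the choroid plexus covariate and −0.012 with 20 lower without the 5 choroid-rich libraries. All genes tested had medians of 0.0031 and 0.0032, with 49.0% and 48.4% lower.

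The count at an unadjusted p below 0.05 moved with single libraries. Starting from all 23 libraries, it went from 4 to 2 without any one of WT 10, WT 11, WT 19, WT 20, WT 23, KO 4, KO 8 or KO 16, fits in which 4.11% to 4.89% of all genes tested had such a p. It went to 8, or 20.5% of the 39, without KO 22, where the share of all genes was 11.3%. Starting without KO 8, it went from 2 to 7 without KO 22 (17.9% against 9.66% of all genes), to 6 without WT 15 (15.4% against 6.77%) and to 5 without KO 18 (12.8% against 4.44%). It went to 4 without WT 17, KO 2 or KO 6 (10.3% against 4% to 6.02%) and to 1 without KO 4 or KO 16 (2.56% against 3.1% and 2.81%). None of the 39 genes was called in these 23 and 22 fits.

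**Figure D2:**
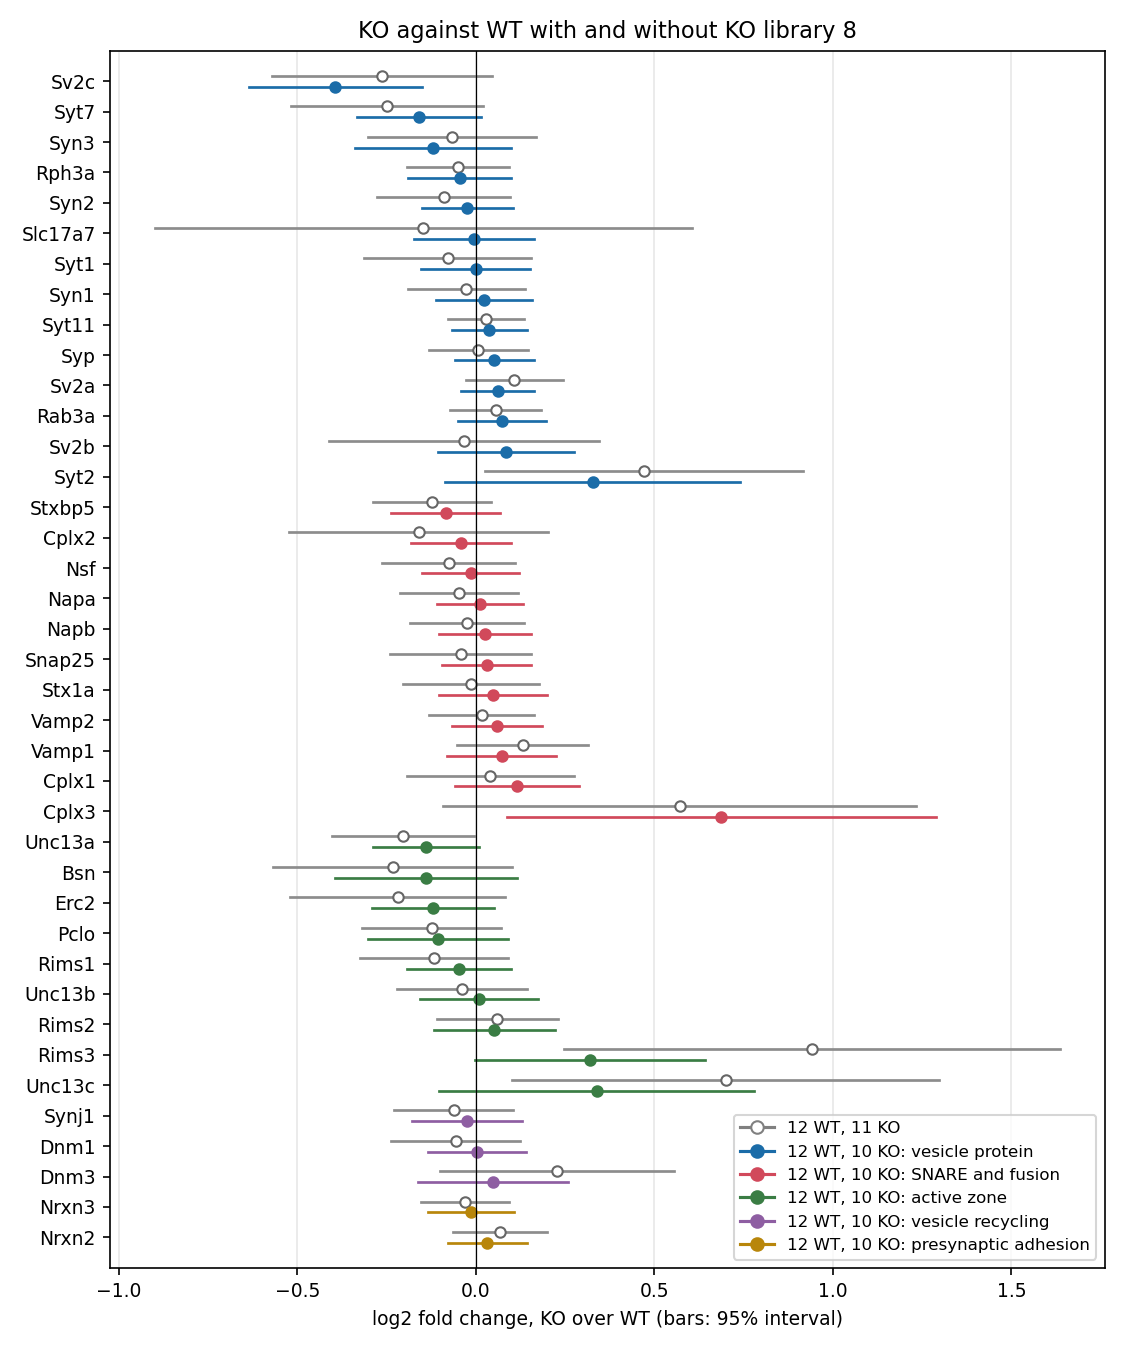
Log2 fold change, KO over WT, of each gene with its 95% interval from edgeR, with 11 KO libraries (open circles) and with 10 KO libraries, KO 8 left out (filled circles), against 12 WT libraries. Without KO 8 the intervals of 38 of 39 genes lie within −1 and 1, Cplx3 being the exception.

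Without KO 8 the 95% interval of the log2 fold change lay within ±0.25 (1.19-fold) for 25 of the 39 genes, within ±0.5 (1.41-fold) for 34, and within ±1 (2-fold) for 38. With KO 8 these counts were 17, 28 and 36. The median distance from the estimate to either bound was 0.152 without KO 8 and 0.192 with it. For Snap25 the interval without KO 8 ran from −0.09 to 0.15, for Syt1 from −0.15 to 0.15, for Slc17a7 from −0.17 to 0.16 and for Syp from −0.06 to 0.16, so for these transcripts differences beyond these bounds were outside the interval. A p that misses the threshold does not show equal levels. The widest intervals without KO 8 were those of Cplx3 (0.09 to 1.29), Unc13c (−0.10 to 0.78), Syt2 (−0.09 to 0.74) and Rims3 (−0.0026 to 0.64).

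By role, the groups had no call either. Of the 14 vesicle protein genes, 9 were lower in KO with KO 8 (median log2 fold change −0.04) and 7 without it (0.012). Of the 11 SNARE and fusion genes, 7 were lower with KO 8 (−0.02) and 3 without it (0.03). Of the 9 active zone genes, 6 were lower with KO 8 (−0.12) and 5 without it (−0.05). The 3 recycling genes had medians of −0.06 and 0.003 and the 2 neurexins 0.02 and 0.009.

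The 6 genes with an unadjusted p below 0.05 in either comparison were examined by library. Rims3 measured 31.0, 44.9 and 79.8 CPM as the lowest, median and highest WT library, 39.3, 48.4 and 94.98 CPM in the 10 KO libraries, and 402 CPM in KO 8. KO 8 was thus 8.67-fold above the median of the other libraries, while the remaining KO values overlapped WT, with 7 of 10 above the WT median. The log2 fold change of Rims3 was 0.94 (SE 0.336, unadjusted p = 0.00998, edgeR adjusted p = 0.781) with KO 8 and 0.32 (SE 0.156, unadjusted p = 0.0517, edgeR adjusted p = 0.967) without it. DESeq2, which replaced an outlying Rims3 count in the fit of all 23 libraries, gave 0.30.

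Unc13c, like Rims3, was highest by far in KO 8. Its lowest, median and highest values were 10.2, 15.5 and 23.5 CPM in WT and 12.2, 16.7 and 39.3 CPM in the 10 KO libraries, and KO 8 measured 88.3 CPM. The groups overlapped without KO 8, with 5 of 10 KO libraries above the WT median. Its log2 fold change was 0.70 (SE 0.29, unadjusted p = 0.0239, edgeR adjusted p = 0.781) with KO 8 and 0.34 (SE 0.213, unadjusted p = 0.127, edgeR adjusted p = 0.967) without it. Under the alternatives to the main fit, the value with KO 8 ranged from 0.40 to 0.88.

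Syt2 measured 14.2, 20.4 and 36.6 CPM in WT, 13.99, 25.8 and 47.1 CPM in the 10 KO libraries and 61.5 CPM in KO 8. The KO range without KO 8 reached above and below that of WT. The log2 fold change of Syt2 was 0.47 (SE 0.216, unadjusted p = 0.0391, edgeR adjusted p = 0.781) with KO 8 and 0.33 (SE 0.199, unadjusted p = 0.115, edgeR adjusted p = 0.967) without it. For these 3 genes the highest library after KO 8 was KO 4 and the highest WT library was WT 15, the pair with the most thalamus and habenula marker counts after KO 8 when Slc17a6 is counted among those markers. Without KO 8 and this pair the log2 fold changes were 0.31 for Rims3, 0.24 for Unc13c and 0.30 for Syt2. Leaving out single libraries moved them further. Without KO 8 and KO 4 they were 0.21 for Rims3, 0.19 for Unc13c and 0.21 for Syt2, and without KO 8 and KO 16 that of Unc13c was 0.22. Without KO 8 and WT 15 they were 0.42 for Rims3 (unadjusted p = 0.00536) and 0.41 for Syt2 (unadjusted p = 0.0426). Starting from all 23 libraries, the unadjusted p of Syt2 stayed below 0.05 in 10 of 23 fits that left out 1 library.

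Unc13a, the main Munc13 isoform, measured 302, 393 and 439.6 CPM in WT, 299, 344 and 444 CPM in the 10 KO libraries and 192 CPM in KO 8. Without KO 8, 7 of 10 KO libraries were below the WT median and 3 of them below the lowest WT library. The log2 fold change of Unc13a was −0.20 (SE 0.0965, unadjusted p = 0.0442, edgeR adjusted p = 0.781) with KO 8 and −0.14 (SE 0.0722, unadjusted p = 0.0653, edgeR adjusted p = 0.967) without it. Starting from all 23 libraries, its unadjusted p stayed below 0.05 in 10 of 23 fits that left out 1 library. Colgalt1 overlaps the exons of Unc13a on the opposite strand, and whether counting used strand is not given in the sources used here.

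Sv2c, the rarest of the Sv2 isoforms, measured 27.3, 45.8 and 56.3 CPM in WT and 26.3, 30.0 and 48.3 CPM in the 10 KO libraries. KO 8 went the other way at 66.9 CPM, the highest of all libraries. Of the other KO libraries, 9 of 10 were below the WT median, the exception being KO 22, and the ranges overlapped. The log2 fold change of Sv2c was −0.26 (SE 0.149, unadjusted p = 0.0898, edgeR adjusted p = 0.781) with KO 8 and −0.39 (SE 0.117, unadjusted p = 0.00264, edgeR adjusted p = 0.967) without it. Without WT 15 and KO 4 as well, it was −0.33. The unadjusted p of Sv2c was below 0.05 in 22 of 22 fits that left out KO 8 and a further library. Starting from all 23 libraries, this held in 3 of 23 fits that left out 1 library.

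Cplx3 was the lowest of the complexins and, within WT, had the highest coefficient of variation of the 39 genes. It measured 1.304, 2.13 and 4.31 CPM in WT and 1.36, 2.95 and 10.5 CPM in the 10 KO libraries, with counts between 12 and 220 over all libraries, and 0.72 CPM in KO 8. KO libraries were spread on either side of the WT median, 6 of 10 above it. The log2 fold change of Cplx3 was 0.57 (SE 0.321, unadjusted p = 0.0877, edgeR adjusted p = 0.781) with KO 8 and 0.69 (SE 0.291, unadjusted p = 0.0267, edgeR adjusted p = 0.967) without it. KO 16 held the highest value, and without it the log2 fold change was 0.25 with KO 8 (unadjusted p = 0.3696, edgeR) and 0.37 without KO 8 (unadjusted p = 0.137, edgeR). Without KO 8 and KO 4 the unadjusted p was 0.0521.

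**Figure D3:**
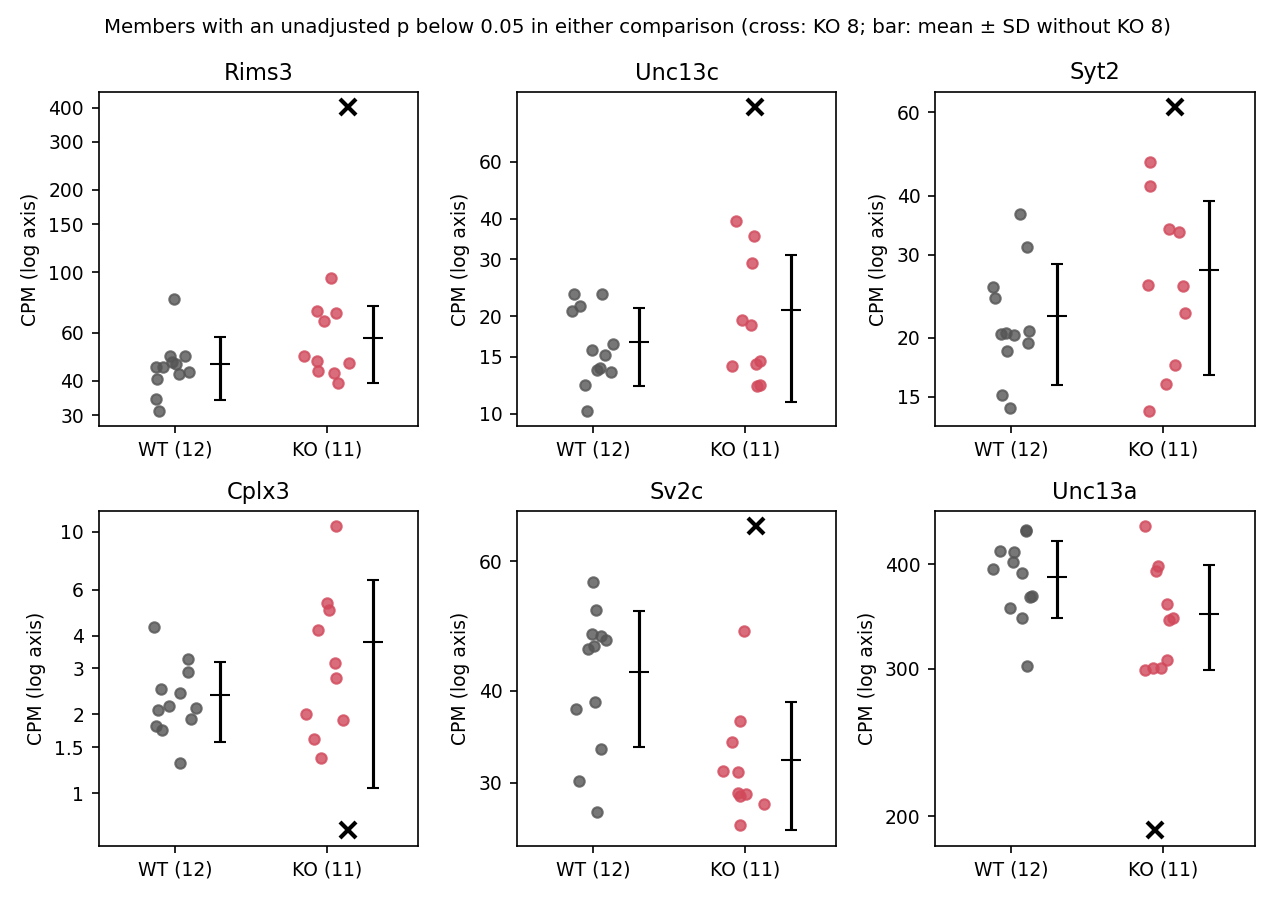
CPM per library, on log axes, of the 6 genes with an unadjusted p below 0.05 in either comparison, for 12 WT and 11 KO libraries. Points are libraries, the cross is KO library 8, and the bar gives the mean ± SD of the group without KO 8; WT and the other KO libraries overlap in all 6 panels.

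Ratios between isoforms in the same library do not depend on how libraries are scaled. Of 17 such ratios, 0 were called between genotypes at a Benjamini-Hochberg adjusted p below 0.05 over the 17 (two-sided permutation test of the mean log2 ratio, 100000 resamples), with or without KO 8. An unadjusted p below 0.05 was found for 5 with KO 8 and 2 without it. The smallest p was that of Sv2c over Sv2a. The mean log2 ratio of Sv2c to Sv2a was −3.30 ± 0.35 (SD, n = 12) in WT and −3.74 ± 0.257 (SD) in the 10 KO libraries, a difference of −0.44 (permutation p = 0.00514, adjusted 0.0874), and all 10 lay below the WT median. With KO 8 included the difference was −0.39 (permutation p = 0.0111, adjusted 0.13), with 11 of 11 KO libraries below the WT median. With a pseudocount of 5 counts or medians of ratios, the difference with KO 8 reached −0.62 and was still not called (smallest adjusted permutation p = 0.1134). In KO 8, where both genes were at their highest, the ratio of −3.16 lay between the WT mean and the WT median. This ratio passed the threshold when WT 1 was left out of the 23 libraries (adjusted permutation p = 0.0391). Without KO 8 it passed when WT 1, WT 5 or KO 22 was also left out (adjusted permutation p = 0.0139, 0.0435 and 0.0238).

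The mean log2 ratio of Syt7 to Syt1 differed between KO and WT by −0.18 with KO 8 (permutation p = 0.0226, adjusted 0.13) and −0.16 without it (permutation p = 0.0442, adjusted 0.282). Of the 10 KO libraries, 9 lay below the WT median of that ratio. Unc13b over Unc13a was higher in KO, by 0.18 on the log2 scale with KO 8 (permutation p = 0.0343, adjusted 0.13) and 0.16 without it (permutation p = 0.0667, adjusted 0.282), and it passed the threshold when WT 17 was left out of the 23 libraries (adjusted permutation p = 0.0391). Rims3 over Rims1 (0.69 with KO 8, 0.34 without it) and Cplx1 over Cplx2 (0.29 and 0.16) had unadjusted p-values of 0.0381 and 0.0375 with KO 8 and of 0.082 and 0.0828 without it.

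Other genes of the presynaptic terminal, taken from a list of 68, were compared in the same fits. Of the 68, 67 passed the filter, and 0 were called by edgeR or DESeq2 with or without KO 8. Ppfia1 was the 1 gene called by limma voom, both with and without KO 8. An unadjusted p below 0.05 was found for 6 with KO 8, 3 higher and 3 lower in KO, and 5 without it, 1 higher and 4 lower, which is 8.96% and 7.46% of the 67 against 5.74% and 4.11% of all genes tested. Higher values in KO made up 3.41% of all genes with KO 8 and 2.18% without it, and lower values 2.34% and 1.93%. Their median log2 fold changes were −0.017 and −0.007. The smallest p was that of Ppfia1, which encodes a liprin scaffold protein and lies on chromosome 7 (144476758 to 144553729). Its distance from Ins2, the gene that differs between the genotypes, was not examined. Whether alleles carried along with the Ins2 deletion had a part in its values was not tested. Ppfia1 measured 38.2, 44.9 and 48.9 CPM in WT, 34.7, 36.5 and 47.4 CPM in the 10 KO libraries and 42.7 CPM in KO 8. In 7 of the 10 KO libraries the value was below the lowest WT library, and in KO 8 it was not. Its log2 fold change was −0.20 (SE 0.0516, unadjusted p = 0.000754, edgeR adjusted p = 0.781) with KO 8 and −0.21 (SE 0.0514, unadjusted p = 0.000453, edgeR adjusted p = 0.963) without it. Ppfia1 was called by limma voom with quality weights (adjusted p = 0.00774 and 0.016) and, without KO 8, by edgeR when KO 12 was also left out (adjusted p = 0.0489).

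The 3 next genes of that list by p were Doc2b, Slc17a6 and Doc2a with KO 8 and Doc2b, Doc2a and Rimbp2 without it. Doc2a and Doc2b are calcium sensors of spontaneous and asynchronous release. Doc2b measured 96.8, 138.5 and 163 CPM as the lowest, median and highest WT library, 83.5, 119 and 135 CPM in the 10 KO libraries and 67.9 CPM in KO 8. All 11 KO libraries were below the WT median, and the ranges overlapped. Its log2 fold change was −0.28 (SE 0.104, unadjusted p = 0.0125, edgeR adjusted p = 0.781) with KO 8 and −0.22 (SE 0.0896, unadjusted p = 0.0204, edgeR adjusted p = 0.967) without it. Doc2a measured 6.06, 8.27 and 10.2 CPM in WT, 5.05, 10.4 and 11.9 CPM in the 10 KO libraries and 31.4 CPM in KO 8. Of the 10, 9 were above the WT median, and the ranges overlapped. Its log2 fold change was 0.53 (SE 0.197, unadjusted p = 0.0136, edgeR adjusted p = 0.781) with KO 8 and 0.27 (SE 0.116, unadjusted p = 0.0285, edgeR adjusted p = 0.967) without it. Without KO 8, its unadjusted p stayed below 0.05 in 18 of 22 fits that left out a further library.

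Rimbp2, which links RIM to calcium channels, measured 120.2, 171 and 222 CPM in WT, 107, 138 and 195 CPM in the 10 KO libraries and 88.7 CPM in KO 8. The groups overlapped, with 2 of 10 KO libraries above the WT median. Its log2 fold change was −0.29 (SE 0.112, unadjusted p = 0.0168, edgeR adjusted p = 0.781) with KO 8 and −0.23 (SE 0.101, unadjusted p = 0.0312, edgeR adjusted p = 0.967) without it, where its unadjusted p stayed below 0.05 in 16 of 22 fits that left out a further library. Slc17a6 encodes VGLUT2, the vesicular glutamate transporter of subcortical neurons. It measured 0.994, 6.67 and 30.6 CPM in WT, 1.01, 12.8 and 42.6 CPM in the 10 KO libraries and 251 CPM in KO 8. Without KO 8 the groups overlapped, with 6 of 10 KO libraries above the WT median. Its log2 fold change was 1.999 (SE 0.738, unadjusted p = 0.0126, edgeR adjusted p = 0.781) with KO 8 and 0.69 (SE 0.578, unadjusted p = 0.243, edgeR adjusted p = 0.967) without it. Under the alternatives to the main fit, the log2 fold change with KO 8 ranged from 0.997 to 2.34. Without KO 8, the log2 fold change was 0.33 when KO 4 was also left out and 1.06 when WT 15 was.

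KO 8 differed from the other libraries across most of the presynaptic genes. It lay below all other 22 libraries for 23 of the 39 genes (59.0%) and above all of them for 9 (23.1%), and inside their range for 7. Of all genes tested, 23.6% lay below and 22.1% above. These are positions of 1 library, chosen because it was known to stand apart, and no test was made. Most hippocampal markers were low and hypothalamic markers high in the same library, and their part in these values was not tested.

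By role, 9 of 11 SNARE and fusion genes were below the others in KO 8 and only Vamp1 was above. Vesicle protein genes were below in 7 of 14 and above in 4, and active zone genes below in 5 of 9 and above in 2. Relative to the median of the other 22 libraries, the lowest genes after Slc17a7 were Cplx2 at 17.2%, Sv2b at 19.4%, Erc2 at 28.6%, Cplx3 at 31.5%, Bsn at 32.5% and Syt7 at 36.8%. Syt1 stood at 45.1%, Cplx1 at 48.5%, Rims1 at 49.9%, Snap25 at 50.1%, Unc13a at 52.5%, Syn2 at 53.3%, Nsf at 55.5% and Dnm1 at 58.8%. Stx1a, Napa, Unc13b, Syn1, Napb, Syp, Stxbp5 and Synj1 were below the others at 60.9% to 74.5%. At the upper end, Rims3 stood at 867%, Unc13c at 570.4%, Syt2 at 284%, Dnm3 at 266%, Sv2c at 190.0%, Vamp1 at 158%, Sv2a at 142%, Nrxn2 at 134% and Syn3 at 133%. Syt11, Rab3a, Rph3a, Vamp2, Rims2, Pclo and Nrxn3 were inside the range.

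**Figure D4:**
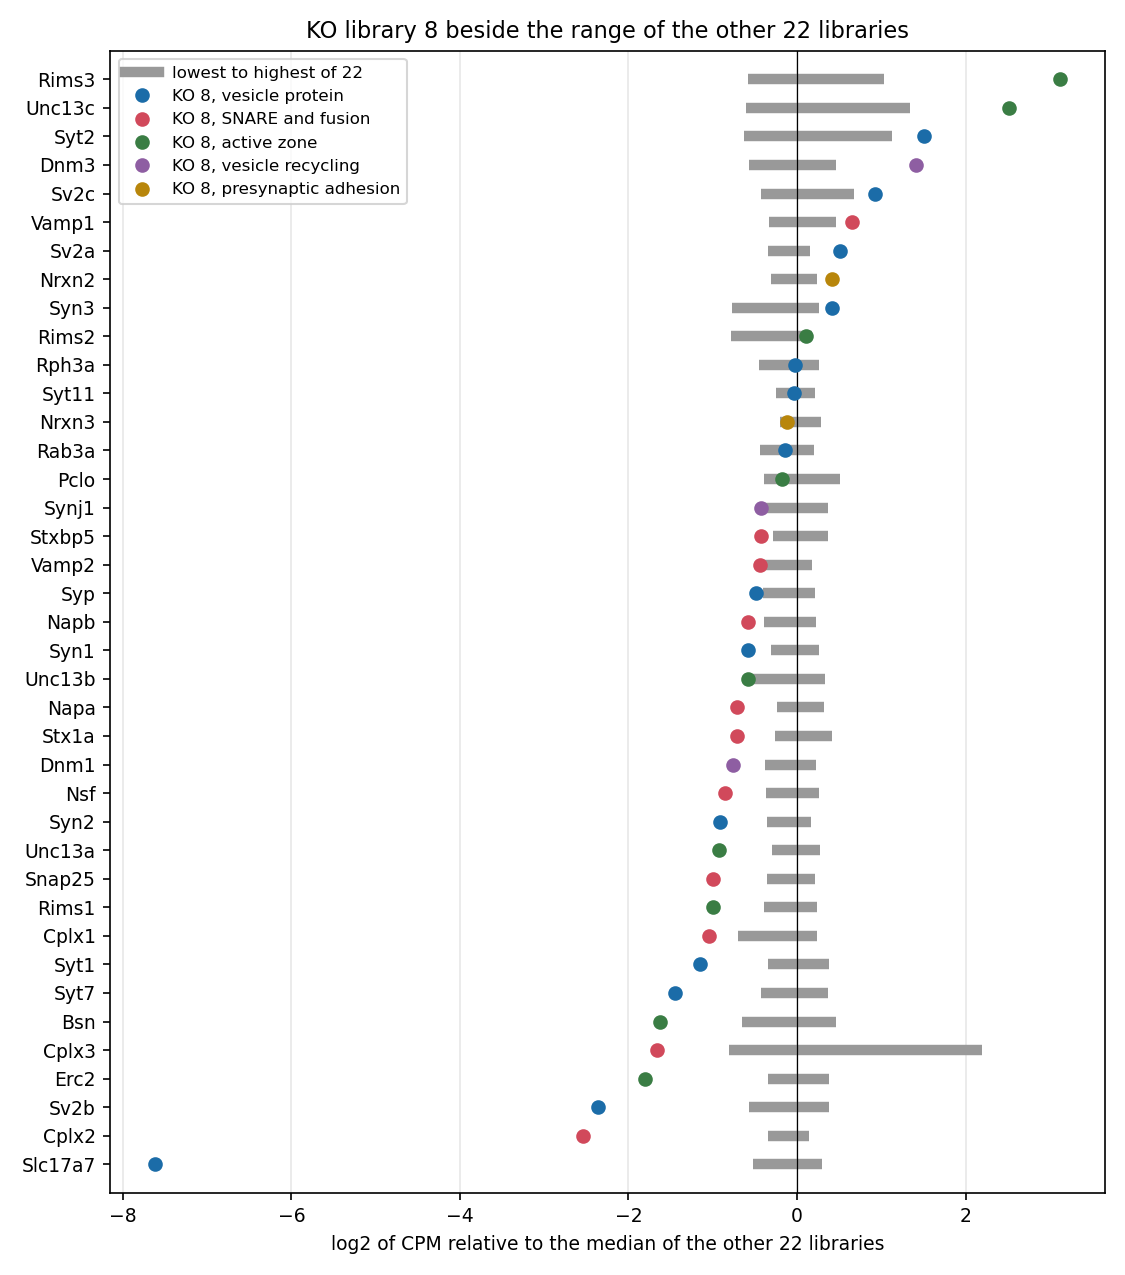
Position of KO library 8 for each of the 39 genes, as log2 of its CPM relative to the median of the other 22 libraries, whose lowest to highest values are the grey bars. Points left of the bar are below all other libraries (23 genes, with Slc17a7 at 0.511% of the median) and points right of it above (9 genes, with Rims3 at 867%).

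Within families the shift in KO 8 was uneven. In some of the 17 pairs, the per-length ratio of the isoform that was lower in WT to its relative was higher in KO 8 than in any other library. These were Vamp1 and Vamp2, Syt2 and Syt1, Syn3 and Syn1, Rims2 and Rims1, Rims3 and Rims1, Unc13c and Unc13a, and Dnm3 and Dnm1. The ratio in KO 8 was inside the range of the others for Syn2 and Syn1, Syt7 and Syt1, Sv2c and Sv2a, Cplx3 and Cplx2, Unc13b and Unc13a, and Napb and Napa. Per length Syn1 was 99.5-fold above Syn3 in KO 8, against at least 152-fold elsewhere, and Rims1 was 2.94-fold above Rims2, against at least 5.3-fold. For Cplx1 and Cplx2, and for Rims1 and Rims3, the order itself was the reverse of that in each of the other 22 libraries. Sv2b and Sv2a were further apart than in any other library. Syt11 was 2.09-fold above Syt1 per length, against at most 1.12-fold elsewhere, and the ratio of Nrxn3 to Nrxn2 was 0.651, against 0.805 to 1.11 elsewhere. Slc17a7, the glutamate transporter of the WT hippocampus, was at 5.76 CPM while Slc17a6 was at 251 CPM. The calls between genotypes, 0 with and 0 without this library by edgeR, were the same in number.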

How the data were processed

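RNA libraries were made from hippocampal tissue with a stranded mRNA kit, per the labels' protocols. The submitters' processing notes name bcl2fastq, STAR and mm10; the counting program, its annotation and its use of strand are not given in the sources used here. The deposited table gives estimated counts for every gene and library, and 0 columns were left unmatched to a sample. Fractional values occurred in 9 of the 39 genes. Exons of 14 genes overlap another annotated gene (Syp, Syn1, Syn2, Syn3, Syt7, Sv2b, Rab3a, Unc13a, Bsn, Pclo, Synj1, Dnm3, Nrxn2 and Nrxn3), for Bsn on the same strand and for the others on the opposite strand, and their values are uncertain to that extent.

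Counts were rounded to whole numbers, filtered with filterByExpr by genotype, scaled by TMM and tested with edgeR 4.0.16 (robust quasi-likelihood F test, R 4.3.3), fitted over all genes with Benjamini-Hochberg adjustment and a threshold of 0.05, once with 23 libraries and once without KO 8. The code was tested on simulated counts. CPM use TMM-scaled library sizes, and positions and lengths come from GENCODE M21. A count of 0 allows up to 3 counts, a limit that covers counting error only, while the 95% intervals of fold changes come from edgeR and carry the spread between libraries. Any 2 libraries of 1 genotype differed by more than sampling noise (chi-square per degree of freedom at least 7.82). Isoform ratios used a pseudocount of 0.5 counts and permutation tests in scipy 1.17.1. The alternatives tried were DESeq2 1.42.0, limma 3.58.1 voom with quality weights, RLE scaling, no filter, a choroid plexus covariate, each library left out, a pseudocount of 5 counts, medians of ratios, and the longest transcript as length. Leaving out the 5 choroid-rich libraries, or WT 15 and KO 4, was chosen after seeing the data. All 39 genes are named; full values are given for those with an unadjusted p below 0.05, the 4 smallest p-values in each comparison, the highest and lowest isoforms, and those outside the range of the other libraries in KO 8, and from the other presynaptic list for any call and the 4 smallest p-values. The genes, lists and tests were chosen with earlier results of these data known.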

Additional observations from a re-analysis of the deposited data

Results flagged for a closer look

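In the 10 KO libraries other than KO 8, 4 of 39 genes had a highest value separated from the next by more of the group's range than Dixon's limit for 10 values allows (0.466); chance alone gives such a separation in about 1 group in 20, and groups of more than 10 libraries were not examined. KO 22 stood out for 3 of them: Sv2c at 48.3 CPM against at most 36.4 CPM in the other 9, Stxbp5 at 179 CPM against at most 145 CPM, and Erc2 at 288 CPM against at most 233 CPM. KO 16 stood out for Cplx3, at 10.5 CPM against at most 5.33 CPM. Sv2c in KO 22 was inside the WT range (27.3 to 56.3 CPM). Stxbp5 was just above the highest WT value (178 CPM), and Erc2 in KO 22 and Cplx3 in KO 16 were above the highest WT values of 262 and 4.31 CPM.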

How the results depend on the processing

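No paired analysis was possible because WT and KO libraries share no replicate number. The count of the 39 genes called was 0 under every alternative run, with and without KO 8. The count at an unadjusted p below 0.05 was 10 under limma voom with quality weights in both comparisons (3 higher and 7 lower in KO), or 25.6% of the 39 against 17.5% of all genes tested with KO 8 and 17.1% without it. Without KO 8 it was 5 with the choroid plexus covariate (12.8% against 5.23%) and 4 (10.3%) without the 5 choroid-rich libraries (8.05% of all genes) or without WT 15 and KO 4 (4.75%). Leaving out each library in turn gave 2 to 8 with KO 8, in fits where 4.11% to 11.3% of all genes had such a p, and 1 to 7 without it (2.81% to 9.66%), medians of −0.056 to 0.012 and −0.0043 to 0.028, and 0 to 1 called ratios in both comparisons. The order of isoform pairs was fixed in 12 of 17, in 13 with the longest transcript and in 14 in WT. The sign of the log2 fold change was the opposite of that reported for genes near 0. With KO 8 this was so under voom for Napa (0.0027), Stx1a (0.042), Snap25 (0.019), Napb (0.0069) and Sv2b (0.030), and without the choroid-rich libraries for Vamp2 (−0.0071) and Syp (−0.015). Without KO 8 it was so under voom for Dnm1 (−0.023) and Unc13b (−0.038), with no filter for Syt1 (0.0018), and with the choroid covariate for Synj1 (0.0055), Unc13b (−0.011), Nsf (0.012), Syt1 (0.029), Nrxn3 (0.0036) and Slc17a7 (0.015). Without KO 8 and the choroid-rich libraries it was so for Napa (−0.027), Dnm1 (−0.019), Unc13b (−0.015), Syt1 (0.010) and Syn1 (−0.012), and without KO 8, WT 15 and KO 4 for Dnm1 (−0.017) and Unc13b (−0.0047). The difference of medians was the opposite in sign to that of means, without KO 8, for Sv2b over Sv2a (−0.029) and Vamp1 over Vamp2 (−0.0074). With each library left out in turn, the log2 fold changes of these genes took both signs: with KO 8, Napa (−0.087 to 0.012), Stx1a (−0.041 to 0.049), Vamp2 (−0.011 to 0.059), Dnm1 (−0.086 to 0.0030), Snap25 (−0.075 to 0.030), Napb (−0.054 to 0.025), Unc13b (−0.075 to 0.0085), Syp (−0.017 to 0.052), Syn1 (−0.055 to 0.024) and Sv2b (−0.086 to 0.084), and without it, Napa (−0.025 to 0.028), Dnm1 (−0.030 to 0.026), Snap25 (−0.0010 to 0.054), Napb (−0.0078 to 0.051), Unc13b (−0.030 to 0.043), Nsf (−0.052 to 0.0054), Syt1 (−0.051 to 0.027), Syn1 (−0.0042 to 0.049), Rims2 (−0.0022 to 0.080), Dnm3 (−0.00088 to 0.092), Nrxn3 (−0.051 to 0.0057) and Slc17a7 (−0.044 to 0.027). So did these log2 ratios: with KO 8, Syn3 over Syn1 (−0.15 to 0.017), Sv2b over Sv2a (−0.29 to 0.026) and Napb over Napa (−0.0042 to 0.074), and without it, Sv2b over Sv2a (−0.022 to 0.052), Vamp1 over Vamp2 (−0.038 to 0.030) and Napb over Napa (−0.019 to 0.063). The cause was not tested. Low counts limit Cplx3, with 12 counts in 1 library.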

Other observations

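Presynaptic genes outside the 39 were placed in KO 8 in the same way. Of 68, 22 (32.4%) lay below and 19 (27.9%) above all other 22 libraries, against 23.6% and 22.1% of all genes tested. The remaining 27 were inside the range, and the median gene stood at 92.3% of the median of the others. The genes named here are some of those far from that median. Stxbp6 stood at 25.8% of the median of the others and the liprin gene Ppfia2 at 28.3%. Above the others were the synaptotagmins Syt9 at 655%, Syt6 at 453% and Syt10 at 229.5%, the calcium channel subunit gene Cacna2d2 at 572%, Doc2a at 343%, and Slc32a1, the vesicular transporter for GABA and glycine, at 219% (155 CPM, others at most 149 CPM). No test was made for this single library.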
